A study of Mus musculus with 31 samples.

Results

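The MHC class II genes form the machinery by which antigen-presenting cells show peptides to CD4 T cells, and 9 of them were followed here through liver and eWAT, the epididymal fat pad, which is a visceral white fat. The 9 were the symbols H2-Aa, H2-Ab1, H2-Eb1, Cd74, H2-DMa, H2-DMb1, H2-DMb2, H2-Ob and Ciita, taken by name because each is present in both count tables, and they are 9 of the 12733 genes that both tables hold. RNA was sequenced from male wild-type F1 mice of the C57BL/6 strain at 24 weeks of age, in 3 arms that the labels tag HFLFD, HFD and LFD and that are called HFLF, HF and LF here. eWAT had 6 HFLF, 6 HF and 4 LF libraries, and liver had 6 HFLF, 5 HF and 4 LF libraries. Every animal in all 3 arms was itself given chow until 6 weeks of age and the LFD diet for the 18 weeks after that, per the labels' protocols. No label says what the tag stands for. From the title of the series it is read here as the diet of the paternal line, not of the animal sampled.

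A class II molecule is a pair of an alpha and a beta chain, encoded in the mouse by H2-Aa with H2-Ab1 and by an E alpha chain with H2-Eb1. The b haplotype of C57BL/6 is known to lack a working E alpha gene, so H2-Eb1 is transcribed there without its partner. The new pair is held in the endoplasmic reticulum and led to the endosome by the invariant chain Cd74, whose remaining fragment is exchanged for peptide by H2-DM, a dimer of H2-DMa with H2-DMb1 or H2-DMb2. H2-Ob is the beta chain of H2-O, which inhibits H2-DM and is best known from B cells. Ciita is the coactivator that switches on class II genes such as H2-Aa, H2-Ab1, H2-Eb1 and Cd74. Dendritic cells, B cells and macrophages are the main cells that carry class II genes, and interferon gamma induces Ciita in many others.

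Ciita does not bind DNA itself but is recruited by the factors RFX, CREB and NF-Y, which assemble on an X box and a Y box just before the start of each class II gene. The stretch that holds both boxes is shown for the 5 members in which it could be read. The sequences are those of RefSeq on GRCm38.p6, read 5′ to 3′ on the strand of the gene, and the capitals mark an X box core (letters AACNNATG, or TGACGTCA for the adjoining X2 box in H2-Aa) and a Y box core (letters TGATTGG).
H2-Aa, chr17:34287855-34287909, minus strand: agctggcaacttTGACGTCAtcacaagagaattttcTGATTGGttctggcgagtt
H2-Eb1, chr17:34305766-34305824, plus strand: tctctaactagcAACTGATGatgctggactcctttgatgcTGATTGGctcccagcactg
H2-DMb1, chr17:34153087-34153146, plus strand: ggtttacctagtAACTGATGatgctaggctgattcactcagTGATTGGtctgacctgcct
H2-DMb2, chr17:34145116-34145175, plus strand: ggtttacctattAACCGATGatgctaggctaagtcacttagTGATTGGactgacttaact
H2-Ob, chr17:34238808-34238864, plus strand: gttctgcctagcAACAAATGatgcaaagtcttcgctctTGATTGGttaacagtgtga

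The Y box core began 50 to 92 bases before the annotated start in these 5 genes, and 16 to 21 bases separated the 2 marked boxes. The windows of H2-DMb1 and H2-DMb2, which are neighbouring copies, had 51 of 60 bases in common. Among all 32851 windows of 300 bases around a start (250 before it and 50 after), the Y box core was in 7.82%, the X box core in 8.86% and TGACGTCA in 1.79%, counting both strands. An X box core followed within 40 bases by a Y box core on the same strand was in 0.0578% of the windows, which are 19 genes, and 4 of the 19 were members (H2-Eb1, H2-DMb1, H2-DMb2 and H2-Ob). The letters were chosen after these promoters had been read, so these shares are a description and no test. Neither of the 2 windows listed for H2-DMa held any of the 3 motifs on either strand, and no promoter of H2-Ab1, Cd74 or Ciita is shown.

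The H2 members lie together on chromosome 17, in GENCODE M21 coordinates on GRCm38 from 34119541 (the start of H2-DMa) to 34316674 (the end of H2-Eb1). Ciita lies at chr16:10480059-10528418 and Cd74 on chromosome 18, and all 9 are annotated as protein coding. H2-DMb1 and H2-DMb2 are near copies: 22.7% of the 50-base words of H2-DMb1 transcripts also occur in another gene, and 24.8% of those of H2-DMb2. Counts of this pair are uncertain to that extent, since the treatment of reads that match both is not given in the sources used here. H2-Aa shared 0.488% of its words and the other 6 members shared none. Brd2 overlaps H2-DMa and Dexi overlaps Ciita on the opposite strand, and without a stated strand setting their reads could not be told apart.

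Library totals ran from 9278083 to 27230205 counts in eWAT and from 9225373 to 17268415 in liver. The tissue labels fitted the markers: the summed adipocyte list was 26399 to 39691 CPM (counts scaled to library size within each tissue) over 6 genes in eWAT and 32.5 to 66.1 CPM over the 3 measured in liver, and the hepatocyte list was 1346 to 6758 CPM in eWAT and 72140 to 113316 CPM in liver. Most of the hepatocyte sum in eWAT was the cytochrome gene Cyp2e1 (median 2460 CPM), and the albumin gene Alb was at 11.9 to 207 CPM there. Some eWAT libraries stood apart from the rest. The summed level of 12 B cell genes was 586 CPM in LF 2, 227 CPM in HF 5 and 117 CPM in HF 3, and 12.5 to 40.6 CPM in the other 13 libraries. Of the 8 genes listed for testis and epididymis, 5 were measured in eWAT (Prm1, Prm2, Tnp1, Tnp2 and Ldhc). Crisp1, Defb41 and Lcn5 were not. The 5 summed to 115.5 CPM in HF 6, 74.0 in HF 2, 23.2 in LF 3 and 17.9 in LF 6, against at most 4.02 CPM in the other eWAT libraries. Arm values of the members in eWAT are given with and without these libraries, and those of the other gene lists only where it is said.

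The classical class II genes were abundant in eWAT and sparse in liver. Cd74 was the highest member per length in both tissues, at 593 ± 175 CPM per kb of exon in eWAT (SD, n = 16) and 39.1 ± 10.3 in liver (SD, n = 15). The chains followed in the same order in both tissues, with H2-Eb1 at 249.5 ± 67.7, H2-Ab1 at 193 ± 52.1 and H2-Aa at 112 ± 31.5 CPM per kb in eWAT. In liver the same 3 levels per kb were 14 ± 3.66, 11.6 ± 2.93 and 6.19 ± 1.62. The peptide loading genes were far lower, H2-Aa having a median of 7.07 times the H2-DMb1 level per kb, with H2-DMb1 at 16.3 ± 4.80 and H2-DMa at 11.2 ± 3.47 CPM per kb in eWAT. H2-DMb2 had 4.46 ± 4.59, Ciita 2.18 ± 0.838 and H2-Ob 1.61 ± 2.14 CPM per kb in eWAT, the lowest 3 members. The order from Cd74 down to H2-DMa held in each of the 16 eWAT libraries for every neighbouring pair. It rests in part on the exon lengths, which are the same divisor in every library. In CPM not divided by length, the eWAT means were 494 for H2-Ab1 and 485 for H2-Eb1. They were 38.4 for H2-DMa and 27.3 for H2-DMb1, so both of these pairs were reversed. In liver H2-DMb1 exceeded H2-DMa in 9 of 15 libraries and H2-Ob exceeded Ciita in 9 of 15, so those neighbours did not differ beyond their spread.

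Between the tissues all 9 genes rose in eWAT over liver in edgeR's quasi-likelihood test with Benjamini-Hochberg adjustment, in a fit of all 31 libraries. Of the 12733 genes tested, 42.9% were called higher in eWAT and 42.6% lower, so the call by itself sets no member apart, and the size of the differences is the description given here. The log2 fold change was 3.45 ± 0.15 (SE) for H2-Aa, 3.43 ± 0.14 for H2-Eb1, 3.32 ± 0.14 for H2-Ab1 and 3.20 ± 0.15 for Cd74, which is 9.19 to 11 times the liver level. It was 3.05 ± 0.17 for H2-DMb1, 2.79 ± 0.16 for H2-DMa, 2.71 ± 0.37 for H2-DMb2 and 2.54 ± 0.20 for Ciita. H2-Ob had the smallest difference at 2.03 ± 0.39 (edgeR adjusted p = 1.8e-05), and it was 1.09 when LF 2, HF 3 and HF 5 of eWAT were left out. With library totals alone in place of the trimmed-mean scaling, the members' median was 3.79 in place of 3.05, while the median over all genes moved to 0.73, and the calls split into 9142 higher and 2476 lower in place of 5464 and 5426. In whole tissue, fewer cells that carry these genes and less RNA of them per cell cannot be told apart.

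**Figure D1:**
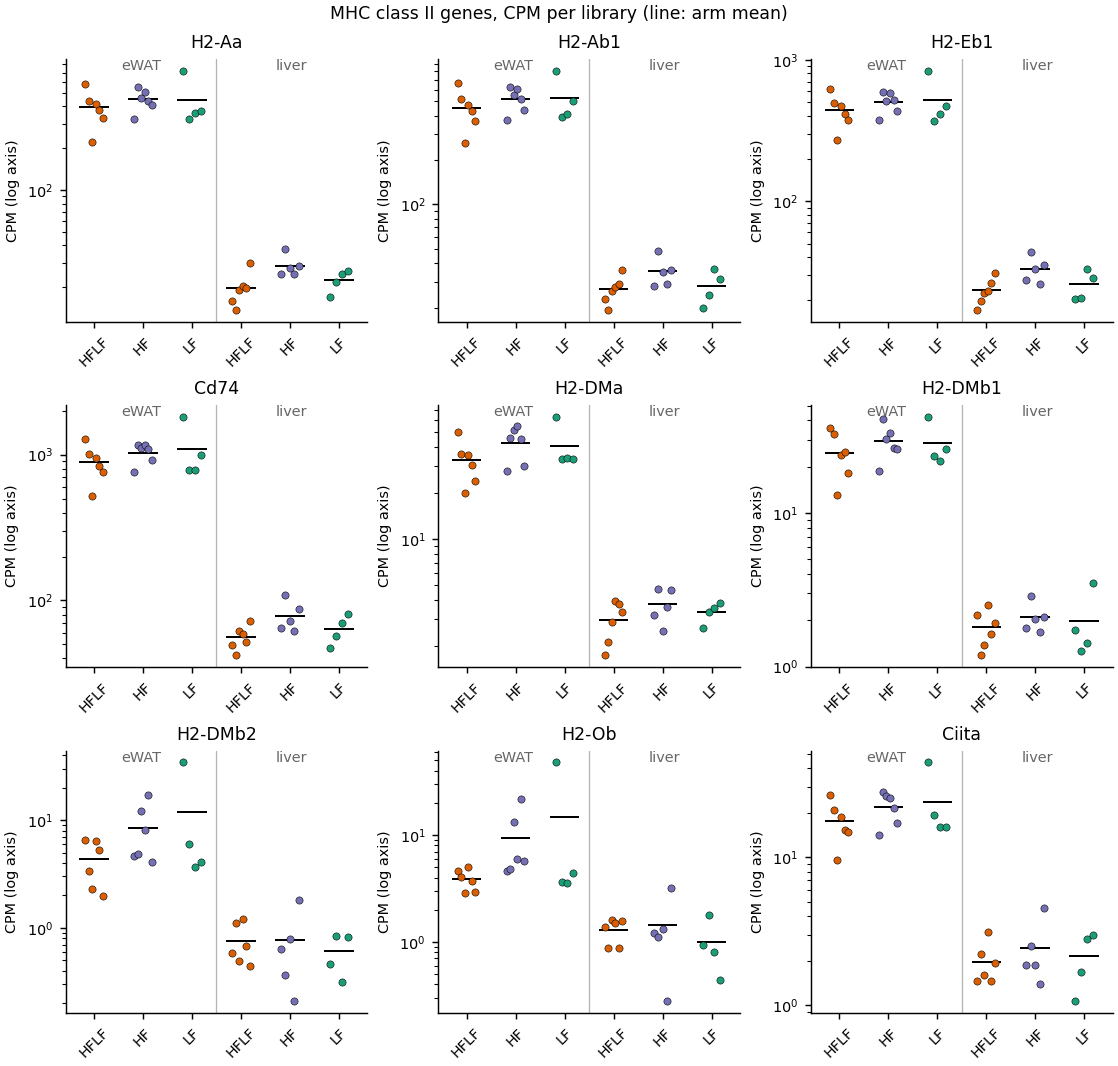
CPM per library (log axis) of the 9 genes in eWAT (left of each panel) and liver (right), by arm in the order HFLF, HF and LF, with each point a library and each line the arm mean. The highest eWAT point of each panel is the library LF 2, which has 47.8 CPM of H2-Ob against 3.57 to 4.44 in the other LF libraries, and arms of one tissue overlap in every panel.

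Levels within each tissue were ordered by arm mean for each gene. Neighbouring arms of the same tissue overlapped in range for each of the 9 genes, in all 18 pairs in eWAT and all 18 in liver. Between the tissues, in CPM scaled within each, H2-Ob overlapped, reaching down to 2.85 CPM in eWAT HFLF and up to 3.22 CPM in liver HF. The other 8 members did not overlap. The share of all genes free of such overlap was not counted, so this sets no member apart. None of the arm effects on a member passed the test in either tissue: edgeR called 0 of the 9 members and 0 genes in all in each of the 6 arm comparisons. Of all genes, 0% were called in each. Arms free of overlap were also rare over all genes: in eWAT 0.651% (higher) and 0.106% (lower) for HFLF over HF, 0.513% and 0.713% for HFLF over LF, and 0.413% and 0.513% for HF over LF. In liver the shares were 0.0804% and 0.11%, 0.424% and 0.519%, and 0.702% and 0.636% in the same order. DESeq2 and limma voom called 0 members as well, the smallest adjusted p of a member being 0.167 with DESeq2 (40 of 54 results had one) and 0.599 with limma voom.

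In liver the 9 genes lay lower in HFLF than in HF by the fitted values, none of which passed the test after adjustment. H2-Aa, the alpha chain, was at 13.8 CPM in the lowest, 19.5 in the median and 30.0 in the highest of the 6 HFLF livers, against 24.9, 37.5, 27.5, 25.1 and 28.3 CPM in HF 1, 2, 3, 5 and 6. A single HFLF library, HFLF 6, lay inside the HF range, and the other 5 lay below all HF livers. H2-Eb1, the E beta chain, was at 17, 22.8 and 31.1 CPM as lowest, median and highest of HFLF, against 27.5, 43.5, 33.1, 26.0 and 35.5 CPM in the HF livers. Here HFLF 5 and HFLF 6 overlapped the HF range. Cd74, the invariant chain, was at 42.0, 55.3 and 72.5 CPM in HFLF and at 64.5, 109, 72.3, 61.3 and 86.8 CPM in HF. H2-Ab1, the A beta chain, was at 19.3, 26.8 and 35.7 CPM in HFLF and at 27.9, 48.2, 34.9, 28.7 and 35.8 CPM in HF, with HF 2 the highest liver of both genes. The 2 arms overlapped for each of the 9 members.

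The fitted log2 fold change of HFLF over HF in liver was -0.53 ± 0.17 for H2-Aa (edgeR unadjusted p = 0.00719, adjusted p = 1.00), -0.51 ± 0.17 for H2-Eb1 (0.00882), -0.49 ± 0.17 for Cd74 (0.0112) and -0.40 ± 0.18 for H2-Ab1 (0.0425). These 4 of the 9 had an unadjusted p under 0.05, where 0.914% of all 13677 genes were lower at that level, 1.86% lay under it in either direction, and 0% passed after adjustment. The 4 are not separate pieces of evidence, since their counts keep nearly fixed ratios from library to library. An exact two-sided permutation test over these 11 livers gave p = 0.0216 for H2-Aa, p = 0.0260 for H2-Eb1, p = 0.0346 for Cd74 and p = 0.0649 for H2-Ab1, unadjusted among 54 such tests. H2-DMa had a log2 fold change of -0.35 ± 0.22, Ciita -0.31 ± 0.33 and H2-DMb1 -0.21 ± 0.28. The members' median was -0.35, against 0.00 over all genes. Left out in turn, no single liver moved H2-Aa outside -0.68 to -0.41, whereas without HF 6 the direction turned for Ciita (0.04), H2-DMb2 (0.56) and H2-Ob (0.40).

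H2-DMb2 and H2-Ob are near the counting limit in liver. H2-DMb2 had 3 to 25 counts and H2-Ob 4 to 44 counts per liver library, where 3 counts correspond to 0.174 to 0.325 CPM. H2-Ob was at 0.868, 1.45 and 1.59 CPM as lowest, median and highest in HFLF livers, at 1.21, 1.1, 1.32, 0.278 and 3.22 CPM in HF 1, 2, 3, 5 and 6, and at 0.929, 1.79, 0.812 and 0.444 CPM in LF 1, 2, 3 and 6. The single liver HF 6 was the highest for H2-Ob, H2-DMb2 and Ciita, at 3.22, 1.83 and 4.53 CPM. No difference between liver arms in H2-DMb2 or H2-Ob was detectable at this depth, with log2 fold changes of HFLF over HF of -0.02 ± 0.46 and -0.13 ± 0.43.

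Against LF, the liver values pointed opposite ways in the other 2 comparisons, which share the LF livers with each other and one arm each with the comparison above. HFLF livers had 7 of 9 members lower than LF livers, with a median log2 fold change of -0.15, against 0.00 over all genes. H2-Aa was -0.17 ± 0.18 and Cd74 -0.18 ± 0.18, and 0 of the 9 had an unadjusted p under 0.05, where 5.47% of all genes did. HF livers had all 9 members higher than LF livers, with a median of 0.33, against 0.00 over all genes. H2-Eb1 was 0.36 ± 0.19 (edgeR unadjusted p = 0.0749), H2-Aa 0.35 ± 0.19 (0.0812) and Cd74 0.31 ± 0.19, and again 0 of 9 were under 0.05, where 3.6% of all genes were. H2-Aa was at 24.9, 37.5, 27.5, 25.1 and 28.3 CPM in HF, against 16.9, 21.8, 24.8 and 26.1 CPM in LF 1, 2, 3 and 6. LF 6 lay inside the HF range and the other 3 LF livers below it. In the 4 pairs of livers with the same number, HF was above LF in all 4 for H2-Aa, H2-Eb1 and Cd74 and in 3 for each of the other 6 members. With the number as a block, 0 members were called in HF over LF (edgeR, smallest adjusted p 0.997). In that fit 3 of the 9 had an unadjusted p under 0.05 in HF over LF, with a median of 0.37. In HFLF over HF 5 of the 9 did. The share of all genes at that level with the block is not given here. That fit held all livers, HFLF included, although HFLF numbers did not pair throughout with either arm. In the fit without a block, the HF over LF median was 0.07 when liver HF 6 was left out.

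In eWAT the largest fitted differences in size were those of H2-Ob and H2-DMb2, whose 3 highest libraries were those rich in B cell genes. H2-Ob was at 2.85 CPM in the lowest, 3.88 in the median and 5.0 in the highest HFLF library, at 4.65, 5.83 and 21.7 CPM in HF, and at 47.8, 3.6, 3.57 and 4.44 CPM in LF 2, 3, 5 and 6. LF 2 stood far above the other LF libraries, which lay within the HFLF range, and HF 5 (21.7 CPM) and HF 3 (13.3 CPM) were the next highest. H2-DMb2 was at 1.97, 4.33 and 6.58 CPM in HFLF, at 4.06, 6.48 and 17.1 CPM in HF, and at 34.2, 5.94, 3.70 and 4.10 CPM in the LF libraries. The same 3 libraries were its highest, LF 2 first, then HF 5 and HF 3 (12.1 CPM).

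HFLF over LF in eWAT gave log2 fold changes of -1.95 ± 0.69 for H2-Ob (edgeR unadjusted p = 0.0123, adjusted p = 0.316) and -1.48 ± 0.62 for H2-DMb2 (0.0291, adjusted p = 0.398). These 2 of the 9 had an unadjusted p under 0.05, where 7.06% of all 15987 genes were lower at that level, 10.8% lay under it in either direction, and 0% passed after adjustment. With the number as a block, 0 of the 9 were under 0.05. Without LF 2 the values were -0.01 for H2-Ob and -0.08 for H2-DMb2. All 9 members were lower, with a median of -0.30, against 0.01 over all genes, and without LF 2 the count was 6 higher and 3 lower, with a median of 0.06. HF over LF gave -0.67 ± 0.67 for H2-Ob and -0.51 ± 0.61 for H2-DMb2, with 3 members higher and 6 lower and a median of -0.05. Of the members, 0 had an unadjusted p under 0.05 there, where 7.04% of all genes did. Without LF 2 all 9 were higher in HF than in LF (median 0.35), and without LF 2, HF 3 and HF 5 they were also all higher (median 0.25). Without the 4 libraries with testis genes (LF 3, LF 6, HF 2 and HF 6) all 9 were lower in HF than in LF (median -0.33), and H2-Ob and H2-DMb2 were -2.75 and -2.15 in HFLF over LF.

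HFLF over HF kept its direction in eWAT through all of these choices. All 9 members were lower in HFLF, with a median of -0.24, against 0.00 over all genes. All 9 were also lower without LF 2, HF 3 and HF 5 (median -0.25), without the testis libraries (-0.22) and without any single library. H2-Ob was -1.29 ± 0.64 (edgeR unadjusted p = 0.0613, adjusted p = 0.552) and H2-DMb2 -0.98 ± 0.57, against -0.46 and -0.33 without LF 2, HF 3 and HF 5. Of the members, 0 of the 9 had an unadjusted p under 0.05, where 9.3% of all genes did. The exact two-sided permutation test gave p = 0.00866 for H2-Ob over these 12 libraries, unadjusted among 54 such tests. Only HFLF 4 (5.0 CPM) lay above the lowest 2 HF libraries (4.65 and 4.83 CPM). The classical genes had smaller differences, within 1 SE of 0: H2-Aa was -0.19 ± 0.22, H2-Ab1 -0.19 ± 0.21, H2-Eb1 -0.19 ± 0.21 and Cd74 -0.21 ± 0.22. H2-Aa was at 222, 397 and 578 CPM in HFLF, at 323, 450 and 548 CPM in HF, and at 718, 327, 356 and 372 CPM in LF 2, 3, 5 and 6. HFLF held both the lowest (HFLF 3) and the second highest (HFLF 1) eWAT library of H2-Aa, so the arms overlapped throughout.

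**Figure D2:**
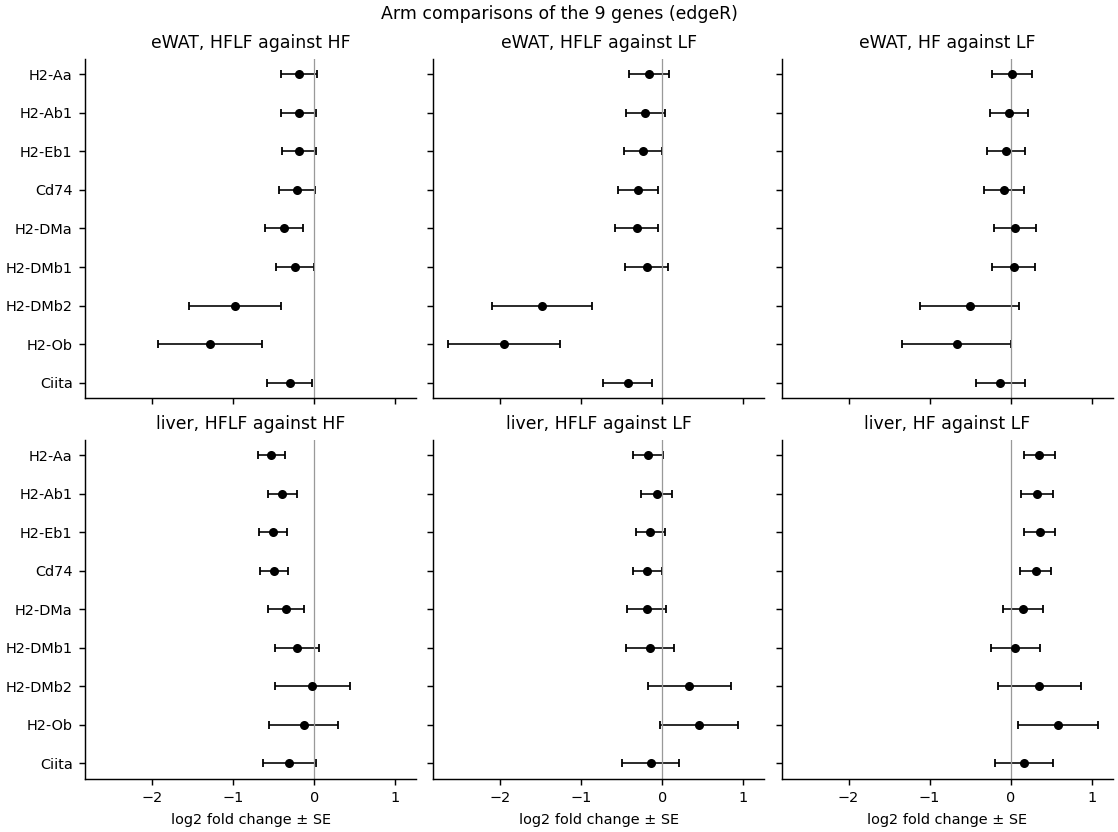
Log2 fold change (x axis) with its standard error (bars) of each of the 9 genes (rows) in the 3 arm comparisons of eWAT (top) and liver (bottom). In liver HFLF against HF the 4 most abundant genes lie between -0.53 and -0.40, and in eWAT H2-Ob and H2-DMb2 have the widest bars and the most negative values, -1.95 and -1.48 in HFLF against LF.

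The difference of the arm effects between eWAT and liver was tested as an interaction, and edgeR called 0 of the 9 members and 0% of the 12733 genes in each of the 3 comparisons. H2-Ob had the largest value, -2.44 ± 0.99 for HFLF over LF (unadjusted p = 0.0199, adjusted p = 0.733), and it was the 1 member under 0.05 where 5.84% of all genes were. Without eWAT LF 2 that value was -0.46. For HFLF over HF, the interaction of H2-Aa was 0.33 ± 0.30, and that of Cd74 was 0.27 ± 0.30, so the liver and eWAT values of these genes were not shown to differ. In that comparison and in HF over LF, 0 members had an unadjusted p under 0.05, where 4.95% and 4.88% of all genes did.

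Counts of the classical genes kept close proportions to one another. In eWAT the H2-Eb1 count was 93.4% to 104% of the H2-Ab1 count, the H2-Aa count 74.4% to 94.4% and the Cd74 count 186% to 227%, over 16 libraries in which H2-Ab1 itself ranged from 261 to 801 CPM. The coefficient of variation of these ratios was 3.65%, 4.76% and 4.72%. In liver, with fewer counts, the same coefficients were 8.2%, 9.50% and 9.44%. H2-DMa was 6.51% to 9.38% of H2-Ab1, H2-DMb1 4.95% to 6.53% and Ciita 3.22% to 5.48% in eWAT, so the highest ratio was at most 1.71 times the lowest in these 3. LF 6 was the lowest of the 16 in H2-Aa to H2-Ab1 (74.4%), the next being HF 3 at 84.0%, and LF 2 was the highest in Cd74 to H2-Ab1 (227%).

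H2-DMb2 and H2-Ob did not keep such proportions. H2-DMb2 was 81.0% of the H2-DMb1 count in eWAT LF 2, 64.6% in HF 5 and 40% in HF 3, and 10.4% to 26.9% in the other 13 eWAT libraries. H2-Ob was 5.97%, 4.20% and 2.42% of the H2-Ab1 count in those 3 libraries and 0.688% to 1.32% in the others. The ranking of the 3 libraries was thus the same in both genes and in the B cell list. H2-Oa, the alpha chain of H2-O, and H2-Eb2, a further class II beta chain gene, were measured in eWAT alone and summed to 16.4, 6.42 and 5.24 CPM in LF 2, HF 5 and HF 3 and to 0.164 to 2.22 CPM in the other 13. The part of B cells in the levels of H2-Ob and H2-DMb2 was not tested. The list named lymph node stroma, 3 of its 7 genes being measured, summed to 315.5 CPM in LF 2, 140.6 in HF 5 and 71.1 in HF 3. It summed to 15.6 to 34.3 CPM in the other 13. The highest eWAT levels of its genes were 292 CPM for the chemokine Cxcl13, 5.95 for Il7 and 42.1 for Pdpn. Most of the LF 2 sum was thus Cxcl13 alone. Ccl19, Ccl21a, Glycam1 and Madcam1 were not measured in eWAT.

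**Figure D3:**
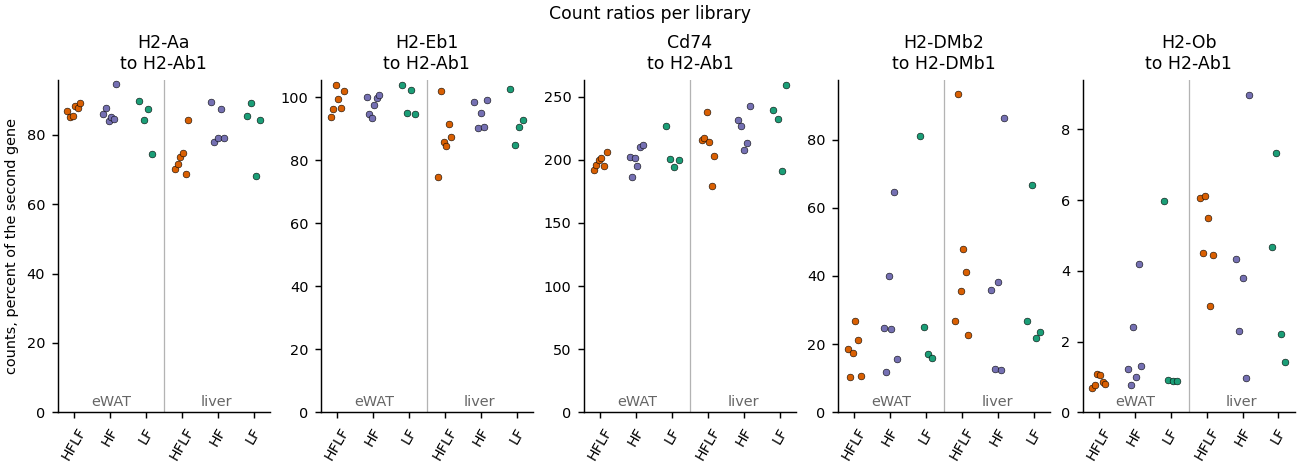
Count of one gene as a percentage of another (y axis from 0) in each library, by tissue and arm in the order HFLF, HF and LF. The first 3 panels are narrow in eWAT (74.4% to 94.4%, 93.4% to 104% and 186% to 227%), while H2-DMb2 to H2-DMb1 runs from 10.4% to 81.0% and H2-Ob to H2-Ab1 from 0.688% to 5.97%.

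**Figure D4:**
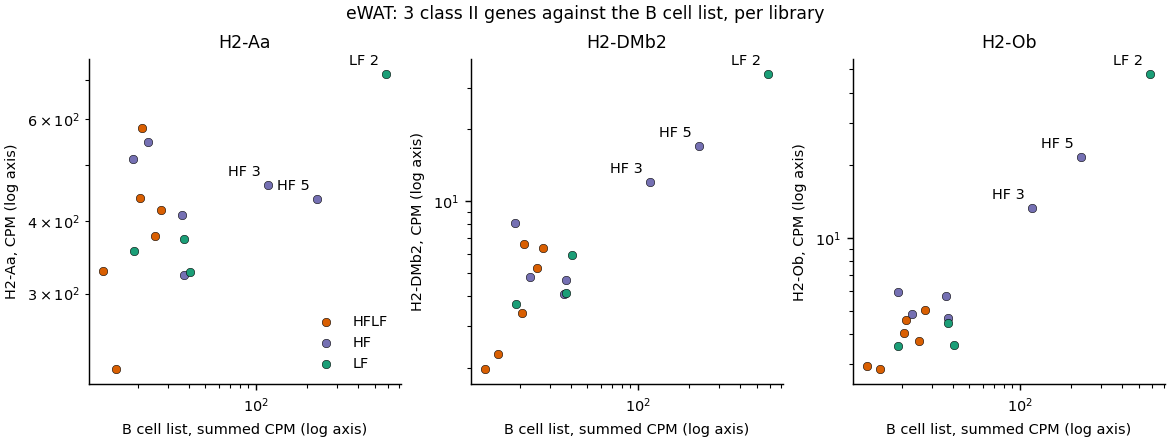
CPM of H2-Aa, H2-DMb2 and H2-Ob (y axes, log) against the summed CPM of 12 B cell genes (x axis, log) in the 16 eWAT libraries, coloured by arm. LF 2, HF 5 and HF 3 lie apart at 586, 227 and 117 CPM of the B cell list and are the 3 highest in H2-DMb2 and H2-Ob, but HF 3 and HF 5 are within the range of the other libraries in H2-Aa.

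The level of H2-Aa across libraries was set beside marker lists of the cells that carry class II genes, in 7 relations (4 in eWAT and 3 in liver). The B cell list fell into 2 clusters in eWAT, so it was related to H2-Aa only within the 13 libraries of the lower one, where Pearson's r was 0.02 and Spearman's rho -0.14 (permutation p = 0.947 and 0.657). HF 5 and HF 3, next to LF 2 in B cell level, had 437 and 462 CPM of H2-Aa, inside the range of the others. The dendritic cell list had 13 genes, among them Clec10a (the highest, median 83.6 CPM in eWAT), Zbtb46 (32.0), Itgax (22.4), Flt3 (2.33) and Xcr1 (1.01). Whether it separates dendritic cells from the other cells that carry class II genes was not tested. It had r = 0.87 and Spearman's rho = 0.84 over 16 eWAT libraries (permutation p adjusted over the 7 relations 0.00014 for r and 0.00098 for rho, the unadjusted p of r, 2e-05, being the smallest that the 100000 resamples can give). Without the 2 libraries farthest from the median marker level r was 0.76, without LF 2, HF 3 and HF 5 it was 0.85, and on deviations from the arm means it was 0.87. The library with the least H2-Aa, HFLF 3, had the lowest mean of the dendritic cell list, and LF 2, with the most H2-Aa, had the highest.

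The macrophage and monocyte list had r = 0.50 and rho = 0.51 with H2-Aa in eWAT (adjusted permutation p = 0.165 for r and 0.151 for rho), and r = 0.78 without the 2 farthest libraries (adjusted p = 0.00756). The T and NK cell list had r = 0.20 and rho = 0.19 over 15 libraries, LF 2 lying apart (adjusted permutation p = 0.553 and 0.581). In liver none of the 3 lists passed: r was 0.38 for B cell, 0.37 for dendritic cell and 0.37 for macrophage and monocyte genes over 15 libraries, with rho of 0.30, 0.33 and 0.32 and adjusted permutation p-values from 0.242 to 0.390. Only 6 of the 12 B cell genes and 6 of the 13 dendritic cell genes were measured in liver, where the dendritic cell list summed to 15.3 to 25.1 CPM, against 127 to 289 CPM over 13 genes in eWAT.

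**Figure D5:**
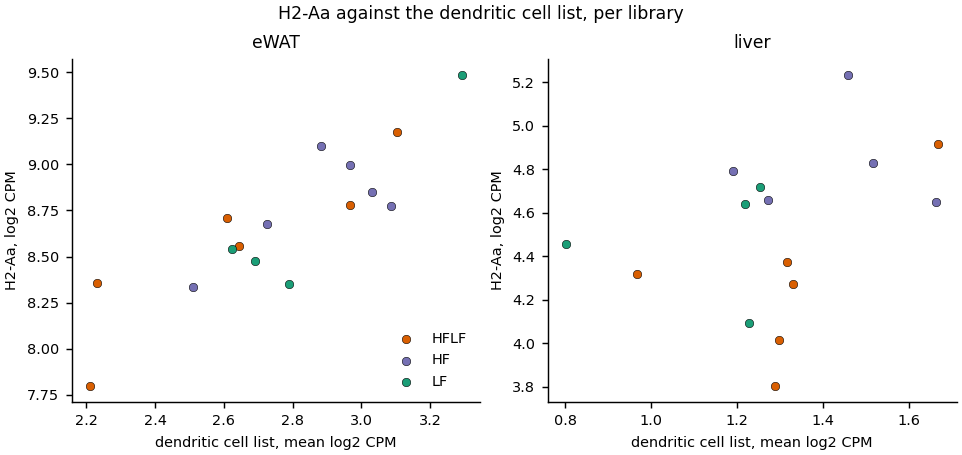
Log2 CPM of H2-Aa (y axis) against the mean log2 CPM of the dendritic cell list (x axis) in eWAT (left, 16 libraries) and liver (right, 15 libraries), coloured by arm. The eWAT points rise together (r = 0.87), from HFLF 3 at the lower left to LF 2 at the upper right, and the liver points scatter (r = 0.37).

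These marker lists were also summed by arm, and edgeR called 0 of their genes in any arm comparison. In eWAT the dendritic cell list summed to 177 ± 35.2 CPM in HFLF, 220 ± 38.7 in HF and 213 ± 30.8 in LF (SD, n = 6, 6 and 4). The macrophage and monocyte list summed to 1509 ± 361, 2026 ± 439 and 2255 ± 665 CPM in the same order, with 14 of its 14 genes lower in HFLF than in HF and in LF. Of the 14, 6 had an edgeR unadjusted p under 0.05 over HF and 10 over LF. The B cell list summed to 20.4 ± 5.76, 76.6 ± 82.1 and 171 ± 277 CPM. Its 12 genes were all lower in HFLF in both comparisons, 9 of them under 0.05 over HF and 12 over LF. The counts of these 2 lists include LF 2, HF 3 and HF 5. Of the Kupffer cell list, of the resident liver macrophages, 4 genes were measured in eWAT and Clec4f was not. All 4 were lower in HFLF than in LF (median log2 fold change -1.90) with an edgeR unadjusted p under 0.05. Of all genes, 7.06% were lower at that level. Without LF 2, 2 of the 4 were under 0.05. Of 6 hepatocyte genes, 5 were lower in HFLF eWAT than in HF with an edgeR unadjusted p under 0.05 (median -2.11). The count was also 5 of 6 against LF (median -2.59). In either direction, 9.3% of all genes lay under 0.05 over HF and 10.8% over LF. Without LF 2, HF 3 and HF 5 the hepatocyte counts were 0 over HF (median -0.97) and 5 over LF. In liver the dendritic cell list summed to 19.9 ± 2.79, 21.6 ± 2.97 and 16.6 ± 1.5 CPM and the macrophage and monocyte list to 233 ± 54.1, 228 ± 70.3 and 258 ± 112 CPM. The Kupffer cell list summed to 162 ± 34.9, 152 ± 64.0 and 191 ± 106 CPM. Between HFLF and HF livers, 4 of the 5 Kupffer cell genes were higher in HFLF (median log2 fold change 0.10), 9 of 13 macrophage and monocyte genes were lower (-0.08) and 3 of 6 dendritic cell genes were lower (-0.04), with 0 called. The part of any of these cell types in the arm values was not tested.

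Genes whose pattern across libraries was most like the members' were found by Pearson's r with the mean of the centred log2 CPM of the 9. In eWAT the 8 closest over 16 libraries were Cd24a (r = 0.95), Plcg2 (0.94), Cytip (0.94), Cd2 (0.94), Map4k1 (0.93), Psd4 (0.93), Tmem176a (0.93) and Dennd1c (0.92). LF 2 was the highest eWAT library for all 9 members, and no ranking without it is given. The mean was not scaled by gene, so H2-DMb2 and H2-Ob, with the widest ranges (17.4 and 16.8 times), weighed most. Cd24a encodes a small surface glycoprotein of blood cells, Plcg2 a phospholipase downstream of the B cell receptor, and Cd2 an adhesion molecule of lymphocytes. The members themselves had r from 0.86 (H2-DMb1) to 0.96 (Cd74). In liver the closest over 15 libraries were Myo1g (0.88), Rab27a (0.81), Pik3cd (0.79), Map3k12 (0.79), Jun (0.78), Arhgap27 (0.77), Adm (0.77) and Elf4 (0.77). Myo1g is a myosin of blood cells and Pik3cd the leukocyte form of the PI3 kinase catalytic subunit. Liver members had r from 0.45 (H2-DMb2) to 0.83 (Cd74), and Myo1g was itself at 1.06 to 4.46 CPM.

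The factors that assemble at the X and Y boxes passed no test. All 7 (Rfx5, Rfxap, Rfxank, Nfya, Nfyb, Nfyc and Creb1) were measured in both tissues, and they summed to 153 ± 5.03 CPM in HFLF, 156 ± 7.23 in HF and 156 ± 6.46 in LF in eWAT. In liver they summed to 105 ± 6.65, 103 ± 6.97 and 105 ± 9.55 CPM. Of the 7, 0 were called and 0 had an unadjusted p under 0.05 in any of the 6 arm comparisons, in edgeR. Ciita itself was at 9.55, 17.1 and 26.3 CPM as lowest, median and highest in eWAT HFLF, at 14.2, 23.4 and 27.7 CPM in HF, and at 43.9, 19.3, 15.9 and 16.1 CPM in LF 2, 3, 5 and 6. Its log2 fold changes in eWAT were -0.30 ± 0.27 for HFLF over HF, -0.43 ± 0.30 for HFLF over LF and -0.13 ± 0.31 for HF over LF. In liver it was at 1.45, 1.76 and 3.13 CPM in HFLF, at 1.86, 2.5, 1.86, 1.39 and 4.53 CPM in HF, and at 1.06, 1.68, 2.81 and 2.98 CPM in LF.

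Genes induced by interferon gamma were all measured, 12 in each tissue. In eWAT HFLF 11 of the 12 were lower than in HF (median -0.29) and 11 were lower than in LF (median -0.28), with 4 under an unadjusted p of 0.05 in each comparison, where 9.3% of all genes were under it over HF and 10.8% over LF, and 0 called. Without LF 2, HF 3 and HF 5 these counts were 1 over HF and 2 over LF, and without the 4 libraries high in testis genes they were 7 and 10. Irgm1 and Igtp, GTPases of cell-autonomous defence, had log2 fold changes of -0.28 ± 0.10 and -0.41 ± 0.16 over HF and of -0.41 ± 0.11 and -0.53 ± 0.18 over LF. In liver 8 of the 12 were lower in HFLF than in HF (median -0.10), of which Gbp5, a guanylate-binding GTPase, was -0.53 ± 0.22. Against LF livers, 11 were higher in HFLF (median 0.13) and 10 were higher in HF (median 0.19). In HF over LF, Gbp5 was 0.65 ± 0.25 and the chemokine Cxcl9 0.72 ± 0.28. Gbp5 was at only 0.789 to 1.92 CPM in liver. Under an edgeR unadjusted p of 0.05 were 3 of the 12 in HF over LF, where 3.6% of all genes were. The count was 1 in HFLF over LF (5.47% of all genes) and 1 in HFLF over HF (1.86%), and 0 were called in liver.

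The proteases and the reductase that prepare peptides for class II were measured in full, 9 genes in each tissue, and 0 were called. In eWAT HFLF, 8 of the 9 were lower than in LF (median -0.23), with 2 under an unadjusted p of 0.05 where 10.8% of all genes were, of which the thiol reductase Ifi30 was -0.95 ± 0.29 and the legumain gene Lgmn -0.84 ± 0.30. In liver the list's median was 0.00 for HFLF over HF, where 6 of 9 were lower. The ubiquitin ligases March1 and March8, which remove class II from the surface, were measured in both tissues. March1 was -0.54 ± 0.23 in eWAT HFLF over HF and 0.20 ± 0.28 in liver. Of 8 genes of the contact with T cells, 8 were measured in eWAT and all were lower in HFLF than in LF (median -0.65). The list summed to 40.6 to 56.7 CPM in HFLF, against 103 CPM in LF 2 and 48.7 to 53.5 CPM in the other 3 LF libraries, and without LF 2 its median was -0.15, with 6 of 8 lower and 0 under an unadjusted p of 0.05. The MHC class I pathway, which shares several regulators with class II, had all 14 genes measured. In liver 10 of its 14 were lower in HFLF than in HF with a median of -0.04, and in eWAT 11 of 14 were lower with a median of -0.10. Against LF in eWAT, 11 of 14 were lower in HFLF (median -0.23) and 10 of 14 in HF (median -0.15). Of the 14, 6 and 3 had an edgeR unadjusted p under 0.05 there, where 10.8% and 7.04% of all genes did, and 0 were called. Against LF in liver the medians were 0.01 for HFLF and 0.06 for HF.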

How the data were processed

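Counts of reads per gene were deposited by the authors for 31 libraries of total RNA sequenced on an Illumina NovaSeq. The submitters' processing notes name STAR and the build GRCm38.p6. The sources used here give no counting tool, annotation, strand setting or minimum level for listing a gene. Counts covered 15987 genes in eWAT and 13677 in liver. Deposited RPKM values were not used here. The members and all gene lists were chosen with earlier results of these data known.

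Each tissue was fitted with edgeR 4.0.16 (R 4.3.3): trimmed-mean scaling, robust quasi-likelihood tests without a replicate block, and Benjamini-Hochberg adjustment over all genes of the table at a threshold of 0.05. filterByExpr removed 0 genes. The biological coefficient of variation was 0.219 in eWAT and 0.194 in liver. The 12733 shared genes of all libraries were fitted together for eWAT against liver and for the interactions. CPM were scaled within each tissue, and log2 CPM used a prior count of 2. Levels per kb used the exon union length in GENCODE M21. A floor of 3 counts was 0.110 to 0.323 CPM in eWAT and 0.174 to 0.325 CPM in liver, which covers counting error only. Exact two-sided permutation tests (scipy 1.17.1) compared log2 CPM of single members, and relations across libraries used 100000 resamples. All members were named, with at most 3 genes of each list by smallest p and the 8 genes of most like pattern per tissue. The labels do not say that numbered libraries of an arm are separate animals, so p-values measure the spread between these libraries, which correlated at r = 0.949 to 0.985 in eWAT and 0.966 to 0.986 in liver. Alternatives were DESeq2 1.42.0, limma 3.58.1 (voom), other size factors, filters, a replicate block and leaving out libraries. The scripts were tested on simulated data.

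Same-numbered HF and LF libraries deviated together from their arm means in all 4 pairs of each tissue (r = 0.109 to 0.245 in eWAT and 0.101 to 0.432 in liver), so these numbers were taken as pairs. HFLF libraries did not pair by number with either arm throughout: 3 of 6 pairs with HF were over 0.1 in eWAT and 3 of 5 in liver.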

Additional observations from a re-analysis of the deposited data

Results flagged for a closer look

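In the 4 eWAT libraries of the LF arm, LF 2 lay far from the others in 3 members. H2-Aa was at 718 CPM in LF 2, against 327 to 372 CPM in the other 3. H2-DMa was at 63.0 CPM, against 33.3 to 33.7 CPM. H2-Ob was at 47.8 CPM, against 3.57 to 4.44 CPM. Dixon's ratio was 0.835, 0.978 and 0.917, above the critical value of 0.829 for 4 samples. Of 54 groups of libraries tested, these 3 were the ones past the value, where chance flags about 1 in 20 groups. LF 2 is also the library with 586 CPM of the B cell list.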

How the results depend on the processing

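All 9 members stayed called higher in eWAT than in liver under every alternative run, and no member was called in any arm comparison. Counts of genes called among arms were 0 with edgeR. DESeq2 called 1 gene in liver HF over LF, 11 in liver HFLF over LF, 12 in eWAT HF over LF, 69 in eWAT HFLF over LF and 52 in eWAT HFLF over HF. The replicate block called 1 in liver HFLF over LF and changed no other call. Without LF 2, HF 3 and HF 5, 17 genes were called for the HFLF over LF interaction. Leaving out 1 library gave 0 to 13 calls in eWAT HFLF over LF (13 without LF 5) and 0 to 1 in the HFLF over LF and HFLF over HF interactions (1 without liver HFLF 4). The macrophage and monocyte relation had r = 0.78 without its 2 farthest libraries. Library totals alone, the rule for clusters and the gene lists without LF 2 or the libraries that stood apart were chosen after seeing the data, and the libraries left out together were chosen from earlier results. The cause of each change was not tested.

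Directions of members turned as follows, in log2 units. In liver HFLF over HF, H2-DMb2 was 0.23 with limma voom and 0.15 on log2 CPM, and H2-Ob 0.19 and 0.13. In eWAT HF over LF without the testis libraries, H2-Aa was -0.32, H2-DMa -0.12 and H2-DMb1 -0.24. With limma voom, H2-Ab1 was 0.039, H2-Eb1 0.022, Cd74 0.0054 and H2-Ob 0.080. On log2 CPM, H2-Ab1 was 0.022, H2-Eb1 0.0038 and H2-Ob 0.095. With the replicate block, H2-DMa was -0.00085 and H2-Ob 0.039. Without LF 2, HF 3 and HF 5, H2-Ab1 was 0.25, H2-Eb1 0.25, Cd74 0.24, H2-DMb2 0.25, H2-Ob 0.45 and Ciita 0.30. In eWAT HFLF over LF without those 3, H2-Aa was 0.16, H2-Ab1 0.065, H2-Eb1 0.074, Cd74 0.058, H2-DMb1 0.063 and Ciita 0.051.

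Leaving out 1 library at a time moved members across 0 as follows. In liver HF over LF the range was -0.091 to 0.48 for H2-DMb1, -0.23 to 0.59 for H2-DMb2 and -0.18 to 0.36 for Ciita. In liver HFLF over LF it was -0.21 to 0.086 for H2-Ab1, -0.30 to 0.28 for H2-DMb1 and -0.38 to 0.062 for Ciita. In liver HFLF over HF it was -0.26 to 0.56 for H2-DMb2, -0.39 to 0.40 for H2-Ob and -0.48 to 0.039 for Ciita. In eWAT HF over LF it was -0.10 to 0.36 for H2-Aa, -0.14 to 0.27 for H2-Ab1, -0.19 to 0.27 for H2-Eb1, -0.22 to 0.28 for Cd74, -0.033 to 0.35 for H2-DMa, -0.076 to 0.31 for H2-DMb1, -0.85 to 0.91 for H2-DMb2, -1.12 to 1.29 for H2-Ob and -0.28 to 0.37 for Ciita. In eWAT HFLF over LF it was -0.31 to 0.16 for H2-Aa, -0.36 to 0.065 for H2-Ab1, -0.39 to 0.074 for H2-Eb1, -0.44 to 0.057 for Cd74, -0.33 to 0.063 for H2-DMb1 and -0.58 to 0.051 for Ciita. The HF over LF interaction of H2-Ob ran from -1.72 to 0.72. H2-DMb2 gave no liver value under a minimum of 1 CPM in 4 libraries. The low counts of H2-DMb2 and H2-Ob limit the liver comparisons.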
